A study of Mus musculus with 11 samples.

Results

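The RAF, MEK and ERK kinases and their scaffold Ksr1 were followed in RNA sequencing libraries of 11 mouse skin tumours from a genetically engineered melanoma model. The set is the 6 genes Araf, Braf, Ksr1, Map2k1, Map2k2 and Mapk3. They were taken by their mouse symbol from a table of 18756 mouse genes, and all 6 were among the 17350 genes tested. In the table they are Araf (ENSMUSG00000001127, chromosome X), Braf (ENSMUSG00000002413, chromosome 6), Ksr1 (ENSMUSG00000018334, chromosome 11), Map2k1 (ENSMUSG00000004936, chromosome 9), Map2k2 (ENSMUSG00000035027, chromosome 10) and Mapk3 (ENSMUSG00000063065, chromosome 7). The tumours fall into 5 of GNA11 Q209L Bap1 KO, 2 of GNA11 Q209L and 4 of BRAF V600E Bap1 KO, all in C57BL/6 mice and all described as end-point tumours. GNA11 encodes a G protein alpha subunit, which Q209L locks in its active state. V600E makes the kinase BRAF active without upstream signals, and Bap1 removes ubiquitin from histones and other nuclear proteins. The header of the deposited table gives BAP1 F/F, a floxed allele, for every library labelled Bap1 KO and WT for both GNA11 Q209L libraries. A second copy of that header at the foot of the table gives no Bap1 entry for BRAF V600E Bap1 KO replicates 2 and 4. The table also counts sequences of CreERT2, a Cre recombinase switched on by tamoxifen, and of an FLP recombinase. It counts human GNA11 Q209L and human BRAF exons 15 to 18 as well, and the label of the BRAF sequence does not name V600E. The sources used here do not give the promoter that drives Cre, the agent, the breeding of the alleles or the age and sex of the mice. GNA11 Q209L Bap1 KO replicates 1 and 2 share an identifier in their titles. The other libraries carry different identifiers, but no label says that each came from a separate mouse. The p-values therefore measure the spread between these libraries.

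The cascade passes a signal from Ras proteins at the membrane to the nucleus through kinases that phosphorylate each other in turn. RAF kinases such as Araf and Braf phosphorylate the MEK kinases (Map2k1, Map2k2), which phosphorylate ERK kinases such as Mapk3, and Ksr1 is a RAF-related protein that holds RAF, MEK and ERK together. In melanocytes and melanoma the cascade is the route through which BRAF V600E acts, and activated G protein alpha subunits of the Gq class reach it through protein kinase C and Ras exchange factors.

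Deposited counts per library summed to between 18338100 and 81035100, and the smallest count of a member was 311, for Ksr1. The counting error of a single member in a single library was at most 5.67%, which covers counting alone. Bap1 itself stood at 101.5 to 170.1 CPM (counts scaled to a common library size) in GNA11 Q209L Bap1 KO, at 85.1 and 137 CPM in GNA11 Q209L and at 54.7 to 71.3 CPM in BRAF V600E Bap1 KO. The count covers the whole gene and the deleted stretch is not given, so it does not check the label. The 9 melanocyte markers summed to 77390 to 100900 CPM in GNA11 Q209L Bap1 KO, to 68670 and 67350 CPM in GNA11 Q209L and to 50.8 to 655 CPM in BRAF V600E Bap1 KO. None of the 9 was at 0 in any library. The CreERT2 sequence had 2904 to 13760 counts in the libraries with GNA11 Q209L. It had 15, 6, 708 and 21 counts in replicates 1 to 4 of BRAF V600E Bap1 KO. The 9 keratinocyte markers summed to 1.43 to 1647 CPM in GNA11 Q209L Bap1 KO (highest in replicate 1), to 7.01 and 1.34 CPM in GNA11 Q209L and to 163 to 13610 CPM in BRAF V600E Bap1 KO, highest in replicates 3 and 4. The 8 fibroblast markers summed to 453 to 2343 CPM in GNA11 Q209L Bap1 KO, to between 2994 and 11430 CPM in GNA11 Q209L and to 3218 to 18450 CPM in BRAF V600E Bap1 KO. BRAF V600E Bap1 KO replicate 4 also held 174700 CPM of 5 salivary gland markers, of which at most 40.6 CPM were found in any library with GNA11 Q209L. It held 4993 CPM of 6 skeletal muscle markers as well. The 6 endothelial markers summed to 276.5 to 381 CPM in GNA11 Q209L Bap1 KO, to 850.3 and 445 CPM in GNA11 Q209L and to 98.5 to 249 CPM in BRAF V600E Bap1 KO. The melanocyte and the endothelial markers set the oncogenes apart, as Mapk3 and Map2k2 do below. The fibroblast markers set GNA11 Q209L Bap1 KO apart from the other genotypes, as Map2k1 does, and the part of any of these in the results was not tested. In bulk tumours a smaller share of a cell type and less RNA per cell cannot be told apart.

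The promoters of Map2k1 and Map2k2, whose transcripts passed a test between the oncogenes, and of Braf and Araf, whose transcripts did not, are shown first. They are taken from RefSeq on GRCm38.p6, from 250 bases before to 50 after the annotated start of the gene. Of the 6 members 5 had an entry there, and Mapk3 is named only. Capitals mark the GC box GGGCGG on either strand and the cyclic AMP response element TGACGTCA. The Map2k1 window lies on the minus strand at chr9:64253556-64253855, the Map2k2 window on the plus strand at chr10:81105665-81105964, the Braf window on the minus strand at chr6:39725414-39725713 and the Araf window on the plus strand at chrX:20848293-20848592.
Map2k1: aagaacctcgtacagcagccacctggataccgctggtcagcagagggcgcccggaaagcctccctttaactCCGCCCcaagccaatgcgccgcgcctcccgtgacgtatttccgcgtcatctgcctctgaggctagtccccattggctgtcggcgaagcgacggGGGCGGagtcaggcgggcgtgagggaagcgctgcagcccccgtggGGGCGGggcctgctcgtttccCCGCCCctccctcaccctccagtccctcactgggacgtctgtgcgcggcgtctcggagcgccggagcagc
Map2k2: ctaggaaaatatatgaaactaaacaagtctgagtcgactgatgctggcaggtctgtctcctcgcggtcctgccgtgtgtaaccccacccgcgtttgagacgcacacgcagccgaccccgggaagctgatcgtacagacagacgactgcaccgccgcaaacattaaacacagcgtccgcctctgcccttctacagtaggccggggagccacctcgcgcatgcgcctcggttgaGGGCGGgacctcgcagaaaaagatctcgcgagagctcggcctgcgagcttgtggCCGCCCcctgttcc
Braf: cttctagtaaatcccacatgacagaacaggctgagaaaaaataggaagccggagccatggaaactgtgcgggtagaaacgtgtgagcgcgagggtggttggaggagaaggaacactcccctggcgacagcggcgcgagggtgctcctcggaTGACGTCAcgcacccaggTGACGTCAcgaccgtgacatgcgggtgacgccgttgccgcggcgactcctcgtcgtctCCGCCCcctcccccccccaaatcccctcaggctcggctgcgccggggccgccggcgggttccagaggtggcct
Araf: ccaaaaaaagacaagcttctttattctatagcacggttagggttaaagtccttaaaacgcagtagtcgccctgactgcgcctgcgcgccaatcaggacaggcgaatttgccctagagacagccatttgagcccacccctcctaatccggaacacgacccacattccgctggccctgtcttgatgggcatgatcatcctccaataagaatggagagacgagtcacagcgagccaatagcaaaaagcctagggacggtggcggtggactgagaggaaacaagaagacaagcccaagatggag
The Map2k1 window holds 4 GC boxes, the Map2k2 window 2 and the Braf window 1, and the Araf window holds none. A GC box is found in 35.7% of the 32851 promoters of the same length. The Braf window holds 2 copies of TGACGTCA, a motif found in 1.79% of promoters. None of the 4 windows holds the E-box CACGTG (7.15% of promoters), the AP-1 motif TGANTCA (7.81%) or the ETS motif CCGGAAG (8.86%), all searched on both strands. Ksr1 also had entries, which are not shown. Its window at chr11:79059787-79060086 holds 1 AP-1 motif and 1 GC box, and that at chr11:79146424-79146723 holds 2 GC boxes. No match says only that these letters are not in the window. The marked matches do not overlap each other. Base composition set the windows apart too, with 69.0% GC for Map2k1, 60.7% for Map2k2, 65.0% for Braf and 52.0% for Araf, against a median of 52.7% over all promoters.

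Per kilobase of transcript, Mapk3 was the most abundant member in every genotype and Braf and Ksr1 were the least. The level per kilobase in GNA11 Q209L Bap1 KO was 380 ± 138 CPM for Mapk3, 111 ± 33.2 for Map2k2, 105 ± 21.3 for Map2k1, 57.1 ± 5.96 for Araf, 5.01 ± 1.31 for Ksr1 and 4.60 ± 1.39 for Braf (SD, n = 5). The neighbours Map2k2 and Map2k1, and the neighbours Ksr1 and Braf, lay within each other's spread. In GNA11 Q209L the means per kilobase were 330 CPM for Mapk3, 111 for Map2k2, 66.0 for Map2k1, 57.9 for Araf, 4.03 for Braf and 3.96 for Ksr1 (n = 2). In BRAF V600E Bap1 KO they were 105 ± 31.0 CPM for Mapk3, 54.6 ± 14.2 for Map2k1, 42.8 ± 4.86 for Araf, 41.2 ± 13.5 for Map2k2, 5.88 ± 1.33 for Braf and 5.24 ± 3.64 for Ksr1 (SD, n = 4). There Map2k1, Araf and Map2k2 lay within each other's spread, so their order cannot be read from the means. Within each of these libraries the counts of Map2k1 were above those of Map2k2, by 1.08 to 1.84 times. The transcripts of these MEK kinases are of similar length, 2436 and 2405 bases. The lengths are those of a GENCODE transcript (9728 bases for Braf, 1800 for Mapk3). With the length of all exons joined, Araf stood at 29.6 CPM per kilobase in GNA11 Q209L Bap1 KO, and Ksr1 at 4.26 came below Braf at 4.60.

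Both GNA11 genotypes held more Mapk3 and Map2k2 transcript than BRAF V600E Bap1 KO tumours, and GNA11 Q209L Bap1 KO tumours also held more Map2k1. No member passed the test between GNA11 Q209L Bap1 KO tumours and GNA11 Q209L tumours. The comparisons were read from edgeR's quasi-likelihood test with Benjamini-Hochberg adjustment over all 17350 genes and a threshold of 0.05. In GNA11 Q209L Bap1 KO over BRAF V600E Bap1 KO, 3 of the 6 members were higher and 0 lower, where 41.2% of all genes passed (16.5% higher, 24.7% lower). In GNA11 Q209L over BRAF V600E Bap1 KO, 2 of 6 were higher and 0 lower, where 15.2% of all genes passed (9.27% higher, 5.93% lower). In GNA11 Q209L Bap1 KO over GNA11 Q209L, 0 of 6 passed, where 0.0288% of all genes (5 genes) passed (0.00576% higher, 0.0231% lower), and 0 of 6 reached an unadjusted p under 0.05 against 11.4% of all genes. DESeq2 and limma voom also called 0 members there. Groups did not overlap for 1 member, higher, in GNA11 Q209L Bap1 KO over GNA11 Q209L (16.6% of all genes, 7.58% higher and 9.01% lower). They did not overlap for 4 members, all higher, in GNA11 Q209L Bap1 KO over BRAF V600E Bap1 KO (31.8% of all genes, 14.7% higher and 17.2% lower), and for 2, both higher, in GNA11 Q209L over BRAF V600E Bap1 KO (41.9% of all genes, 19% higher and 22.9% lower). With 6 members, nothing particular to the set is read from these counts. The median log2 fold change of the members was 0.20, 0.68 and 0.35 in GNA11 Q209L Bap1 KO over GNA11 Q209L, GNA11 Q209L Bap1 KO over BRAF V600E Bap1 KO and GNA11 Q209L over BRAF V600E Bap1 KO. The median of all genes was -0.0040, -0.26 and -0.23 in the same order. The comparisons share libraries, so they do not repeat each other independently. The transgenes also differed between the GNA11 genotypes. Human GNA11 Q209L had 120, 213, 319, 137 and 1005 counts in GNA11 Q209L Bap1 KO replicates 1 to 5. It had 877 and 2807 in GNA11 Q209L. These are unscaled, from totals of 69712200 in that replicate 5 and 42180300 in GNA11 Q209L replicate 1. The FLP recombinase had 1244, 659, 1, 3242 and 7563 counts, and 1 in each GNA11 Q209L library. The part of these was not tested.

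Mapk3, which encodes ERK1, showed the widest span of the set, 6.62-fold between its highest and lowest library. It stood at 486, 915, 719, 376 and 927 CPM in GNA11 Q209L Bap1 KO replicates 1 to 5, at 467 and 723 CPM in GNA11 Q209L and at 269.7, 172, 177 and 140.1 CPM in replicates 1 to 4 of BRAF V600E Bap1 KO. Every library with GNA11 Q209L was above every BRAF V600E library, and the 2 GNA11 genotypes overlapped. GNA11 Q209L Bap1 KO tumours held 3.61-fold more Mapk3 than BRAF V600E Bap1 KO tumours (log2 fold change 1.85 ± 0.35 SE, edgeR adjusted p = 0.00359, means of 685 and 189.6 CPM). In each of 19 alternative settings of that comparison it kept its direction and its call, with log2 fold changes from 1.40 to 2.09. It was 3.14-fold higher in GNA11 Q209L than in BRAF V600E Bap1 KO (1.65 ± 0.42, edgeR adjusted p = 0.0293). That call was lost without BRAF V600E Bap1 KO replicate 2, 3 or 4 (1.60, 1.61 and 1.52) and without GNA11 Q209L replicate 1 or 2 (1.94 and 1.30), with adjusted p from 0.0508 to 0.271 in edgeR. With either GNA11 Q209L library left out, that genotype has 1 library, which the fit assumes to vary like the other groups, here and for the genes below. Between GNA11 Q209L Bap1 KO tumours and GNA11 Q209L tumours the difference was 0.20 ± 0.42 (edgeR adjusted p = 0.913), with an approximate 95% interval from -0.62 to 1.03.

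**Figure D1:**
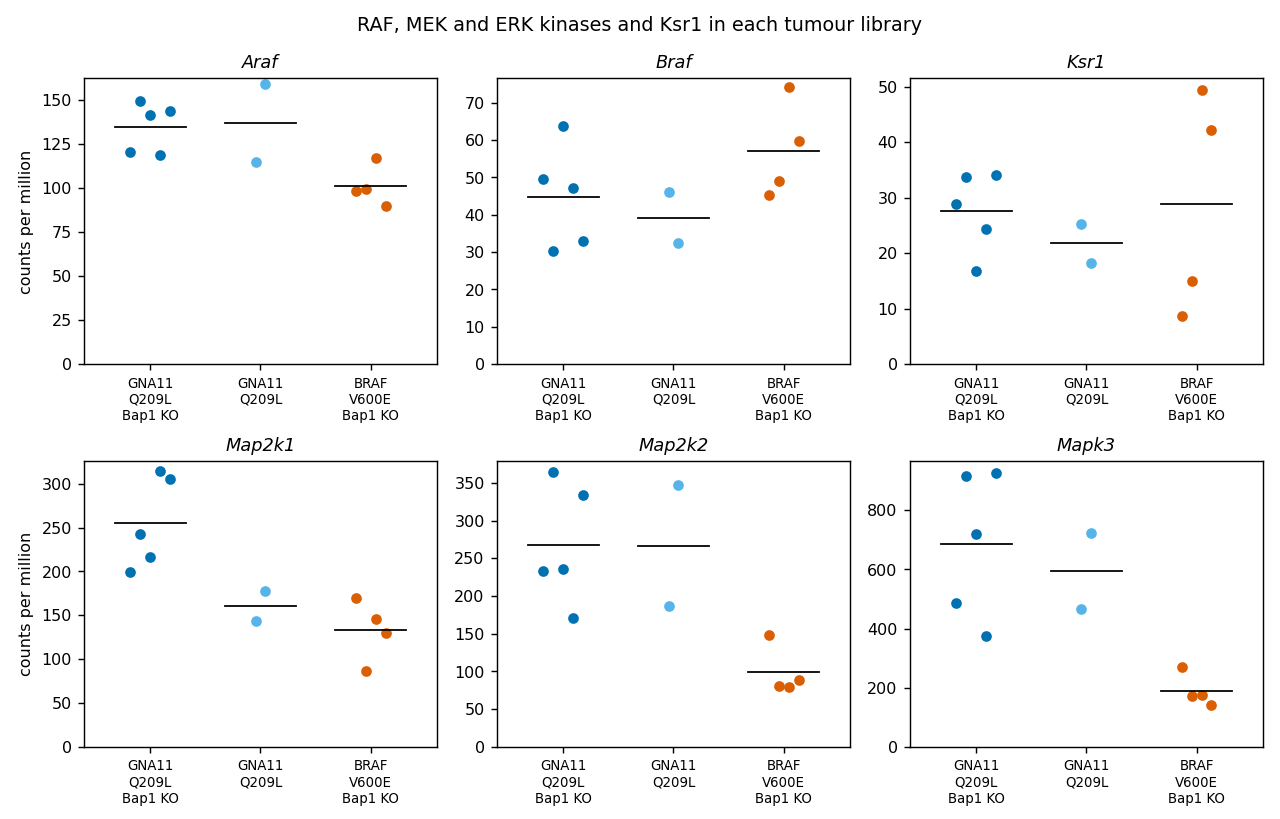
CPM, scaled counts (vertical axis, linear, from 0) of each member in the 11 tumour libraries, by genotype. Points are libraries and lines are means. Mapk3 and Map2k2 lie higher in all 7 libraries with GNA11 Q209L than in the 4 BRAF V600E Bap1 KO libraries, while Braf and Ksr1 overlap between the oncogenes.

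Map2k2, which encodes MEK2, was also higher with GNA11 Q209L. It stood at 233, 365, 236, 170.4 and 334 CPM in GNA11 Q209L Bap1 KO replicates 1 to 5, at 187 and 347 CPM in GNA11 Q209L and at 148, 80.8, 79.5 and 88.8 CPM in replicates 1 to 4 of BRAF V600E Bap1 KO. All 7 libraries with GNA11 Q209L were above the 4 BRAF V600E libraries, of which replicate 1 was the highest. GNA11 Q209L Bap1 KO tumours held 2.70-fold more Map2k2 than BRAF V600E Bap1 KO tumours (log2 fold change 1.43 ± 0.32 SE, edgeR adjusted p = 0.00697). It was 2.69-fold higher in GNA11 Q209L than in BRAF V600E Bap1 KO (1.43 ± 0.38, edgeR adjusted p = 0.0353). The second of these calls was lost without BRAF V600E Bap1 KO replicate 2, 3 or 4 (1.33, 1.33 and 1.37) and without GNA11 Q209L replicate 2 (0.91), with edgeR adjusted p from 0.0595 to 0.359. Between GNA11 Q209L Bap1 KO tumours and GNA11 Q209L tumours the means were 268 and 267 CPM, a log2 fold change of 0.0052 ± 0.39 (edgeR adjusted p = 1.0) with an approximate 95% interval from -0.75 to 0.76.

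Map2k1, which encodes MEK1, was highest with GNA11 Q209L and the Bap1 KO label together. It stood at 199, 242, 217, 315 and 305 CPM in GNA11 Q209L Bap1 KO replicates 1 to 5, at 144 and 178 CPM in GNA11 Q209L and at 169, 87.0, 146 and 130.0 CPM in replicates 1 to 4 of BRAF V600E Bap1 KO. The 5 GNA11 Q209L Bap1 KO libraries were above all 6 others, whose genotypes overlapped. GNA11 Q209L Bap1 KO tumours held 1.92-fold more Map2k1 than BRAF V600E Bap1 KO tumours (log2 fold change 0.94 ± 0.25 SE, edgeR adjusted p = 0.0136). Against GNA11 Q209L it was the only member whose groups did not overlap. The log2 fold change of 0.67 ± 0.31 (means of 256 and 161 CPM) did not pass the test (edgeR adjusted p = 0.459). Between GNA11 Q209L tumours and BRAF V600E Bap1 KO tumours the difference was 0.27 ± 0.31 (edgeR adjusted p = 0.541).

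The calls of Map2k1 and Map2k2 in GNA11 Q209L Bap1 KO over BRAF V600E Bap1 KO were kept whichever single library was left out, but not with 2 BRAF V600E libraries left out. With only replicates 1 and 3 of BRAF V600E Bap1 KO, the libraries that carry a Bap1 entry in both headers, 1 member passed in GNA11 Q209L Bap1 KO over BRAF V600E Bap1 KO. It was Mapk3, with a log2 fold change of 1.60 (edgeR adjusted p = 0.0427), while Map2k1 was at 0.68 (adjusted p = 0.122) and Map2k2 at 1.22 (adjusted p = 0.0789). With only replicates 1 and 2, the libraries lower in keratinocyte markers, Mapk3 passed at 1.60 (edgeR adjusted p = 0.0282). Map2k1 was then at 0.97 and Map2k2 at 1.20, with edgeR adjusted p of 0.0608 and 0.0602.

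Neither of the RAF kinases Araf and Braf passed the test in any comparison. Araf stood at 120.3, 149, 141, 119 and 144 CPM in GNA11 Q209L Bap1 KO replicates 1 to 5, at 114 and 159 CPM in GNA11 Q209L and at 98.1, 99.1, 117 and 89.8 CPM in replicates 1 to 4 of BRAF V600E Bap1 KO. The GNA11 Q209L Bap1 KO libraries were all above the BRAF V600E Bap1 KO libraries, by a narrow margin over replicate 3. Its log2 fold change between them was 0.41 ± 0.18 SE (edgeR adjusted p = 0.0824). In GNA11 Q209L over BRAF V600E Bap1 KO it was 0.43 ± 0.22 (edgeR adjusted p = 0.183). Over GNA11 Q209L, GNA11 Q209L Bap1 KO was at -0.02 ± 0.22 (edgeR adjusted p = 0.993), with an approximate 95% interval from -0.45 to 0.41. Araf is an X-linked gene and the labels give no sex. Xist, the transcript of the inactive X, reached 695 CPM in GNA11 Q209L Bap1 KO replicate 3 and at most 1.42 CPM in its other replicates. Both GNA11 Q209L libraries held it, at 358 and 198 CPM. The BRAF V600E Bap1 KO libraries held 99.8, 0.92, 1224 and 0.26 CPM, in replicate order. Between the GNA11 genotypes Xist thus differed along with the Bap1 label, except in replicate 3. Beyond a fit with Xist as a covariate, the part of sex there was not tested. With that covariate, Araf was at 0.46 in GNA11 Q209L Bap1 KO over BRAF V600E Bap1 KO (edgeR adjusted p = 0.088).

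Braf stood at 49.7, 30.4, 63.7, 47.2 and 33.0 CPM in GNA11 Q209L Bap1 KO replicates 1 to 5, at 46.2 and 32.3 CPM in GNA11 Q209L and at 45.4, 49.2, 74.4 and 59.7 CPM in replicates 1 to 4 of BRAF V600E Bap1 KO. The genotypes overlapped, and replicate 3 was the highest library of BRAF V600E Bap1 KO. The log2 fold change of GNA11 Q209L Bap1 KO over BRAF V600E Bap1 KO was -0.35 ± 0.26 (edgeR adjusted p = 0.299), and that of GNA11 Q209L over BRAF V600E Bap1 KO was -0.54 ± 0.35 (edgeR adjusted p = 0.276). Against GNA11 Q209L, GNA11 Q209L Bap1 KO was at 0.19 ± 0.33 (edgeR adjusted p = 0.892).

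The table also counts a human BRAF sequence of exons 15 to 18, kept out of the mouse Braf row. It had 1 count over the 5 GNA11 Q209L Bap1 KO libraries and 0 in GNA11 Q209L, where a count of 0 allows a share of up to 0.121% of the human and mouse counts of both libraries. It had 77, 81, 43 and 50 counts in replicates 1 to 4 of BRAF V600E Bap1 KO, which is 0.865, 2.76, 1.50 and 2.19 CPM. Of the human and mouse BRAF counts together, the human sequence made up 1.87% (95% Wilson interval 1.50 to 2.33), 5.31% (4.30 to 6.56), 1.97% (1.47 to 2.65) and 3.53% (2.69 to 4.63) in the 4 libraries. The mouse row covers the whole gene and the human sequence only some exons, so the share is not a share of alleles. The sources used here do not give the allele design it belongs to.

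Ksr1, the scaffold, passed the test in no comparison. It stood at 28.9, 33.7, 16.8, 24.3 and 34.1 CPM in GNA11 Q209L Bap1 KO replicates 1 to 5, at 25.3 and 18.2 CPM in GNA11 Q209L and at 8.65, 14.9, 49.5 and 42.1 CPM in replicates 1 to 4 of BRAF V600E Bap1 KO. BRAF V600E Bap1 KO held both its lowest and its highest libraries, and the 2 high ones, replicates 3 and 4, were those highest of their genotype in keratinocyte, fibroblast, melanocyte and Schwann cell markers. The 5 Schwann cell markers summed to 25.01, 31.2, 878 and 524 CPM in replicates 1 to 4 of BRAF V600E Bap1 KO, and the part of any of these in the Ksr1 values was not tested. The log2 fold change of GNA11 Q209L Bap1 KO over BRAF V600E Bap1 KO was -0.06 ± 0.47 (edgeR adjusted p = 0.923, approximate 95% interval -0.98 to 0.86). Without replicates 3 and 4 it was 1.21 and passed (edgeR adjusted p = 0.0386), so the direction for Ksr1 depends on these libraries. With a single library left out it ran from -0.37 to 0.32, the highest without replicate 3, and by limma voom it was 0.37, none of which passed. Against GNA11 Q209L, the log2 fold change of GNA11 Q209L Bap1 KO was 0.34 ± 0.59 (edgeR adjusted p = 0.891), and that of GNA11 Q209L over BRAF V600E Bap1 KO was -0.40 ± 0.62 (edgeR adjusted p = 0.657).

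**Figure D2:**
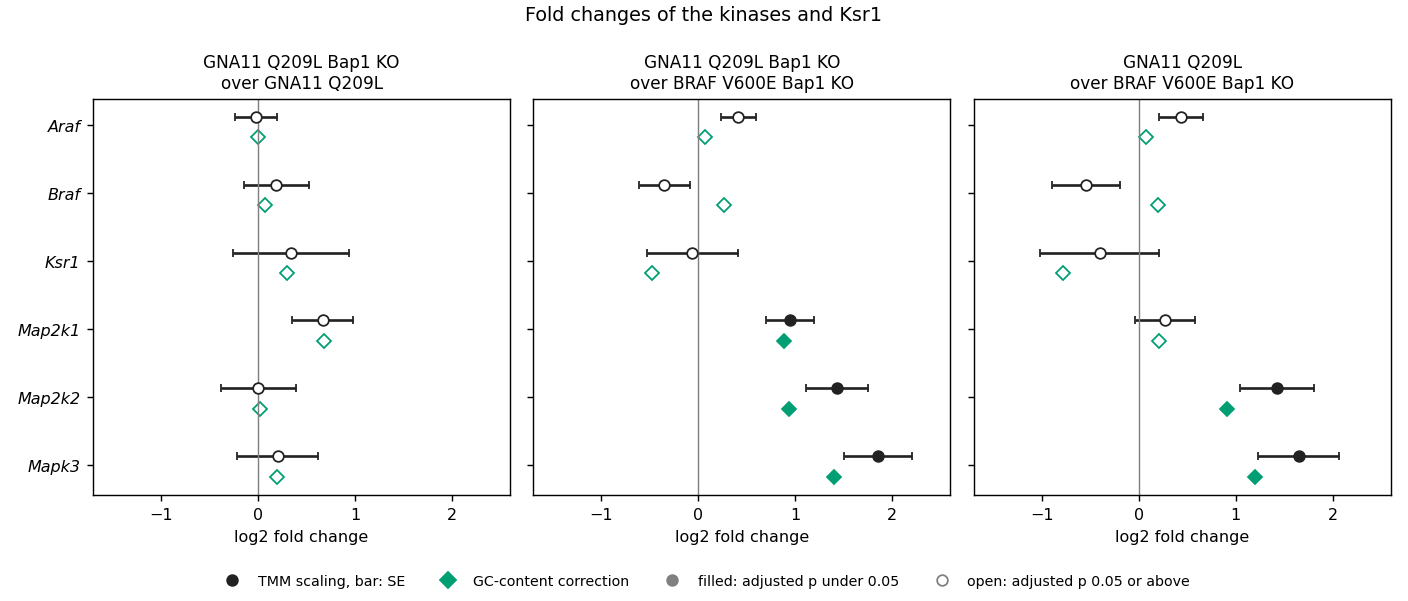
Log2 fold change (horizontal axis) of each kinase and Ksr1 in the 3 comparisons. Circles are the edgeR fit with TMM scaling and bars its SE, diamonds the same fit after a correction for GC content, and filled symbols have an adjusted p under 0.05. Mapk3 and Map2k2 are filled in both comparisons with BRAF V600E Bap1 KO under both fits, and Map2k1 in the comparison with GNA11 Q209L Bap1 KO.

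The libraries differed in how their counts depended on the GC content of the transcript, and this moved with the oncogene. For each library the median log2 deviation from a gene's mean was taken over the 1370 genes with the highest GC content (above 57.75%) and the 1370 with the lowest (below 43.01%). High-GC minus low-GC, it was 0.19, 1.52, 0.17, -0.50 and 0.64 in GNA11 Q209L Bap1 KO replicates 1 to 5, -0.06 and 1.25 in GNA11 Q209L and -0.58, -1.10, -0.61 and -0.84 in replicates 1 to 4 of BRAF V600E Bap1 KO. All BRAF V600E Bap1 KO libraries lay below all libraries with GNA11 Q209L. The members span this range, from 42.6% GC for Braf to 51.2% for Map2k1, 55.0% for Araf, 57.3% for Ksr1, 57.6% for Mapk3 and 60.4% for Map2k2. A correction that subtracts the trend of each library on GC content was added after the trend was seen. It moved the median of all genes to -0.13 in GNA11 Q209L Bap1 KO over BRAF V600E Bap1 KO and to -0.11 in GNA11 Q209L over BRAF V600E Bap1 KO. What gives rise to the trend was not tested.

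After the correction, the same 3 members passed in GNA11 Q209L Bap1 KO over BRAF V600E Bap1 KO and the same 2 in GNA11 Q209L over BRAF V600E Bap1 KO. The size of the Map2k2 difference changed most among them. Against BRAF V600E Bap1 KO, the log2 fold change in GNA11 Q209L Bap1 KO was 1.40 for Mapk3 (edgeR adjusted p = 0.00296), 0.93 for Map2k2 (adjusted p = 0.00817) and 0.89 for Map2k1 (adjusted p = 0.0144), each with groups that did not overlap. The spread of Map2k2 over the 5 GNA11 Q209L Bap1 KO libraries narrowed to 0.28 log2 units, against 1.10 before the correction. The difference of Araf was then 0.07 (adjusted p = 0.700), and that of Braf turned to 0.27 (adjusted p = 0.343). In GNA11 Q209L over BRAF V600E Bap1 KO, Mapk3 was at 1.20 (edgeR adjusted p = 0.0294) and Map2k2 at 0.91 (adjusted p = 0.0434). Of 19 alternative settings of GNA11 Q209L Bap1 KO over BRAF V600E Bap1 KO, the direction for Braf turned in 1, this correction.

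**Figure D3:**
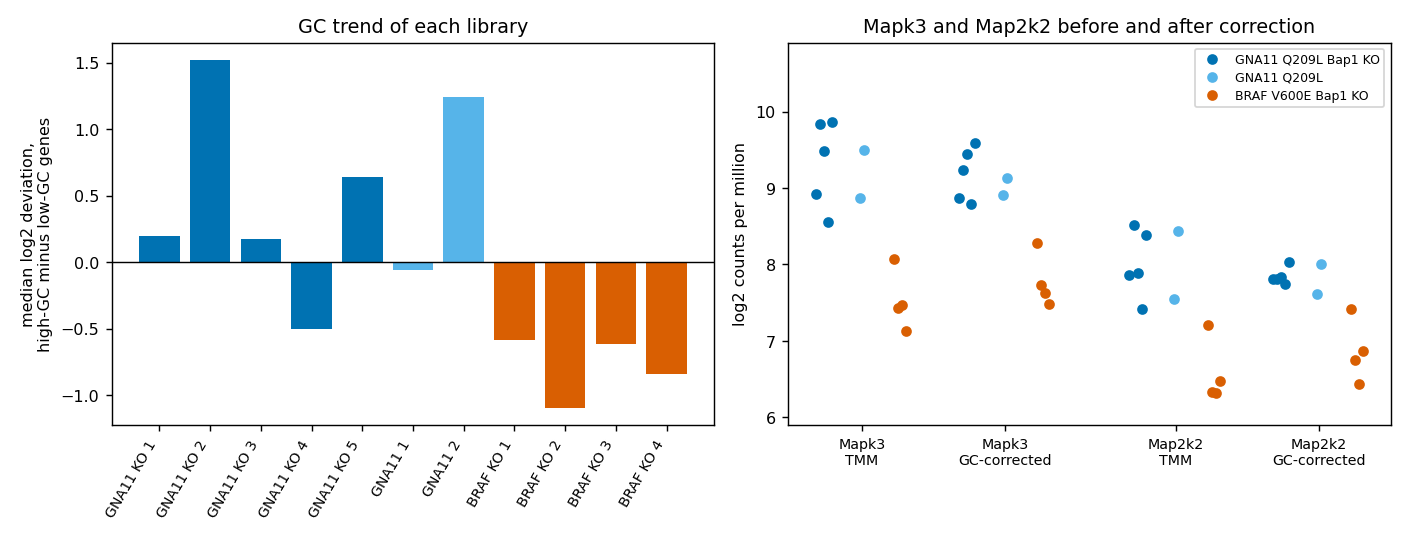
Left, the median log2 deviation of high-GC minus low-GC genes in each library, by genotype and replicate. Right, log2 CPM of Mapk3 and Map2k2 in each library before and after the correction for GC content. The 4 BRAF V600E Bap1 KO libraries lie between -1.10 and -0.58 on the left, and on the right the oncogenes stay apart for both genes.

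Ratios of related kinases within a library do not depend on library scaling. The counts of Araf were 2.42, 4.90, 2.22, 2.52 and 4.35 times those of Braf in GNA11 Q209L Bap1 KO replicates 1 to 5, 2.48 and 4.91 times in GNA11 Q209L and 2.16, 2.01, 1.57 and 1.50 times in replicates 1 to 4 of BRAF V600E Bap1 KO. The groups with GNA11 Q209L did not overlap BRAF V600E Bap1 KO, although 2.22 and 2.16 were close. Counts are not set per length here, so only the change of a ratio between libraries can be read. Between GNA11 Q209L Bap1 KO tumours and BRAF V600E Bap1 KO tumours, the ratio gave a two-sided exact permutation p of 0.0159, the smallest that 5 against 4 libraries allow, and 0.0714 after adjustment over 9 tests, of which 6 are reported, which does not pass. The mean log2 ratio of Araf over Braf differed by 0.79 ± 0.27. After the correction for GC content the difference was -0.20 (exact permutation p = 0.333). The ratio pairs a gene of higher with a gene of lower GC content.

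For the ratio of the MEK kinases no test passed. The counts of Map2k1 were 0.856, 0.665, 0.919, 1.85 and 0.913 times those of Map2k2 in GNA11 Q209L Bap1 KO replicates 1 to 5, 0.772 and 0.512 times in GNA11 Q209L and 1.15, 1.08, 1.84 and 1.47 times in replicates 1 to 4 of BRAF V600E Bap1 KO. Replicate 4 of GNA11 Q209L Bap1 KO stood apart from the others of its genotype. The mean log2 ratio of GNA11 Q209L Bap1 KO minus that of BRAF V600E Bap1 KO was -0.47 ± 0.30 (exact permutation p = 0.206), and -0.07 after the correction for GC content (exact permutation p = 0.778). GNA11 Q209L did not overlap BRAF V600E Bap1 KO, with a difference of -1.10 ± 0.34 (exact permutation p = 0.133, the smallest that 2 against 4 libraries allow, so that no difference could have passed). After the correction it was -0.70. None of the 6 ratio tests passed after adjustment. Those with the 2 GNA11 Q209L libraries could not have passed, since their p cannot go below 0.0952. The test of Araf over Braf between the genotypes labelled Bap1 KO was at its smallest possible p, so its adjusted p depended on the other tests.

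The ratio of Mapk3 to Map2k2, chosen after its values were seen and given as a description, varied far less than either gene. It ran from 2.09 to 3.05 in GNA11 Q209L Bap1 KO, was 2.50 and 2.08 in GNA11 Q209L and ran from 1.58 to 2.22 in BRAF V600E Bap1 KO. Over all 11 libraries it spanned 1.93-fold, against 6.62-fold for Mapk3 and 4.59-fold for Map2k2.

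**Figure D4:**
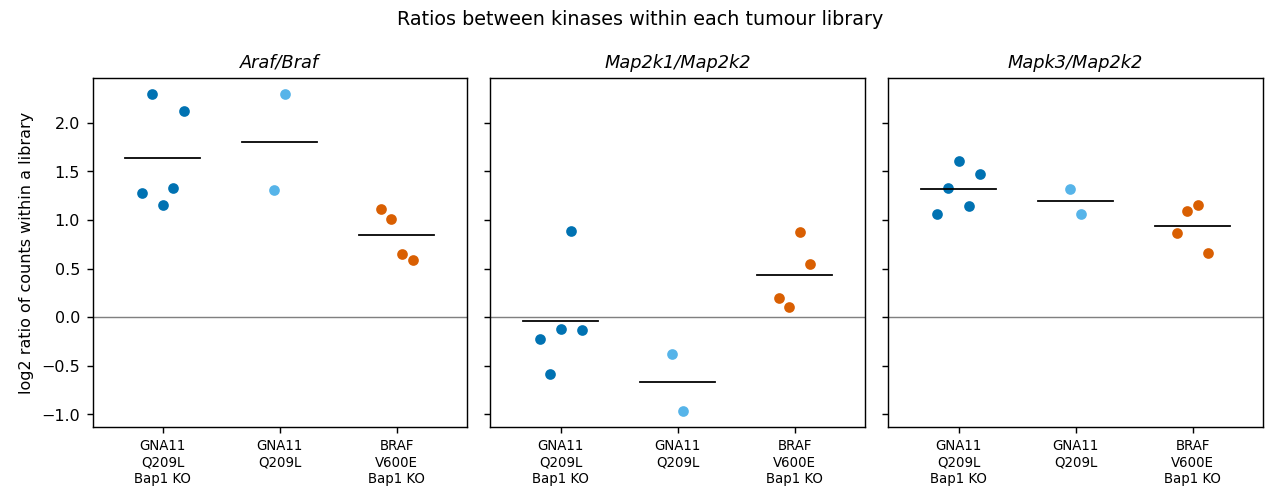
Log2 ratio of the counts of 2 kinases within a library (vertical axis), by genotype, with points for libraries and lines for means. Araf over Braf lies higher in all 7 libraries with GNA11 Q209L than in the 4 of BRAF V600E Bap1 KO, while Mapk3 over Map2k2 stays between 0.66 and 1.61 in all 11.

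The genes whose pattern over the 11 libraries was most like each member were found by the root mean square difference in log2 CPM, each gene centred on its own mean, among 10394 genes. For Mapk3 they were Ppp2r1a (0.17), the scaffold subunit of protein phosphatase 2A, and Rnf187 (0.21), and Map2k2 stood at 0.26 where the median gene stood at 1.08. For Map2k2 they were Wars (0.11), a tryptophanyl-tRNA synthetase, and Atp5d (0.12), a subunit of the mitochondrial ATP synthase. For Map2k1 they were Mon1b (0.16) and Ctnna1 (0.18), the alpha-catenin of adherens junctions, against a median of 0.76. For Araf they were Zfp498 (0.09) and Derl2 (0.10), for Braf the ubiquitin ligase Itch (0.16) and Lrig2 (0.18), and for Ksr1 Ctnnal1 (0.33) and Limk2 (0.36), a kinase of the actin cytoskeleton. Ksr1 had the least close neighbours of the set, and its median gene stood at 0.95. These patterns were taken without the correction for GC content, and what makes them alike was not tested.

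The rest of the pathway was read from 6 lists with 66 genes in the table, all of them tested. Ksr2 and Mos are not analysed here. Of the 66, 23 were higher and 12 lower in GNA11 Q209L Bap1 KO over BRAF V600E Bap1 KO. There 41.2% of all genes passed (16.5% higher, 24.7% lower). In GNA11 Q209L over BRAF V600E Bap1 KO 10 were higher and 5 lower, where 15.2% of all genes passed (9.27% higher, 5.93% lower). Between GNA11 Q209L Bap1 KO tumours and GNA11 Q209L tumours 0 of the 66 passed in edgeR, 6 had an unadjusted p under 0.05 (11.4% of all genes did), and limma voom called 0. DESeq2, and edgeR with these genotypes fitted alone, each called 1, Rap1gap. Rap1gap, which switches off the Ras relative Rap1, stood at 52.2, 81.2, 57.9, 32.7 and 31.2 CPM in GNA11 Q209L Bap1 KO, at 2.98 and 1.87 CPM in GNA11 Q209L and at 243, 67.1, 38.9 and 42.7 CPM in BRAF V600E Bap1 KO. Both genotypes labelled Bap1 KO were above GNA11 Q209L in every library. The log2 fold change of GNA11 Q209L Bap1 KO over GNA11 Q209L was 4.39 ± 0.89 (edgeR adjusted p = 0.133), and that of GNA11 Q209L over BRAF V600E Bap1 KO was -5.33 ± 0.95 (edgeR adjusted p = 0.00862), a call lost without GNA11 Q209L replicate 2 (-5.05, adjusted p = 0.112). Without BRAF V600E Bap1 KO replicate 1 it was -4.35 and passed.

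Of the other cascade kinases, 2 of 3 were higher in GNA11 Q209L Bap1 KO tumours than in BRAF V600E Bap1 KO tumours and 0 lower (median log2 fold change 0.95, against -0.26 for all genes). They are the MEK and ERK of the parallel ERK5 branch, Map2k5 (50.5 against 20.9 CPM, log2 fold change 1.27 ± 0.26, edgeR adjusted p = 0.00455) and Mapk7 (66.6 against 34.5 CPM, 0.95 ± 0.27, adjusted p = 0.0184). Of the scaffolds and chaperones, 7 of 21 were higher and 4 lower (median 0.26). Of all genes, 16.5% were higher and 24.7% lower in this comparison. Higher were Lamtor1, which anchors MEK1 signalling at late endosomes (206.5 against 52.1 CPM, 1.99 ± 0.31, edgeR adjusted p = 0.00149), Iqgap1 (1.44 ± 0.27, adjusted p = 0.00337) and Ywhah, a phosphoserine-binding adaptor of RAF (1.80 ± 0.24, adjusted p = 0.000768). Lower were Cnksr1, a connector that enhances KSR (0.234 against 8.15 CPM, -5.13 ± 1.03, edgeR adjusted p = 0.00435, highest in BRAF V600E Bap1 KO replicate 4 at 20.7 CPM) and 3 others, among them Erbin. The change of Erbin (-1.13 ± 0.25, edgeR adjusted p = 0.00691) did not pass after the correction for GC content (-0.36, adjusted p = 0.0679).

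Of the genes listed here as inhibitors of the cascade, some of which may also act otherwise, 6 of 12 were higher in GNA11 Q209L Bap1 KO tumours than in BRAF V600E Bap1 KO. In the same list 1 was lower (median 0.57), where 16.5% of all genes were higher and 24.7% lower. Higher were Nf1, a GTPase-activating protein of Ras (222 against 90.6 CPM, log2 fold change 1.29 ± 0.22, edgeR adjusted p = 0.00222), and the phosphatase genes Ppp2r1a (1.99 ± 0.39, adjusted p = 0.00411) and Ppp5c (1.32 ± 0.30, adjusted p = 0.00746). The lower gene was Rasa1, another GTPase-activating protein of Ras, at 24.2 against 207 CPM (-3.10 ± 0.58, edgeR adjusted p = 0.00340). So 2 genes of the same activity towards Ras moved in opposite directions, Nf1 higher and Rasa1 lower, and both kept their calls after the correction for GC content (1.79 and -2.49). Of the Ras family GTPases, 1 of 8 was higher and 3 lower (median -0.35), but 0 of 8 passed after the correction, with an edgeR median of -0.22. The lower genes included Nras, at 92.2 against 153 CPM (-0.73 ± 0.16, edgeR adjusted p = 0.00616), which was at -0.08 after the correction (adjusted p = 0.741).

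Downstream of ERK, 4 of 12 effector kinases and factors were higher in GNA11 Q209L Bap1 KO tumours than in BRAF V600E Bap1 KO and 3 lower (median 0.42). The shares of all genes were 16.5% higher and 24.7% lower, here and for the output list below. Within the ribosomal S6 kinase family the directions differed. Rps6ka2 stood at 106 against 7.72 CPM (log2 fold change 3.78 ± 0.55, edgeR adjusted p = 0.00104) and Rps6ka5 at 2.55 against 7.85 CPM (-1.62 ± 0.43, adjusted p = 0.0140). Mknk2, a kinase of the translation factor eIF4E, stood at 547 against 117 CPM (2.22 ± 0.35, edgeR adjusted p = 0.00162). Of the 10 genes used as transcriptional output of the cascade, 3 were higher and 1 lower (median 0.47). Phlda1 (2.51 ± 0.42, edgeR adjusted p = 0.00209), the ERK phosphatase Dusp4 (2.49 ± 0.64, adjusted p = 0.0122) and cyclin D1, Ccnd1 (1.64 ± 0.49, adjusted p = 0.0228), were higher, and the receptor Epha2 was lower at 15.2 against 99.9 CPM (-2.72 ± 0.61, adjusted p = 0.00716). The genes of the output list that passed therefore had no common direction in this comparison. In GNA11 Q209L Bap1 KO over GNA11 Q209L the median of the output list was 0.93, against -0.0040 for all genes, and 0 of its 10 genes passed. Leaving out 1 library at a time, the counts over the 6 lists ran from 18 to 26 higher and from 8 to 12 lower in GNA11 Q209L Bap1 KO over BRAF V600E Bap1 KO. With only replicates 1 and 2 of BRAF V600E Bap1 KO they were 13 higher and 10 lower, and with only replicates 1 and 3 they were 9 higher and 7 lower. Of the genes of the lists named above, Mapk7, Ppp5c, Dusp4 and Ccnd1 lost their calls in both of these fits. Without BRAF V600E Bap1 KO replicate 1 the log2 fold change was -1.54 for Epha2, 3.52 for Dusp4 and -2.32 for Rasa1, and without replicate 4 it was -4.10 for Cnksr1, all still past the threshold in edgeR. Transcript levels of the kinases say nothing of their phosphorylation, which was not measured here.

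**Figure D5:**
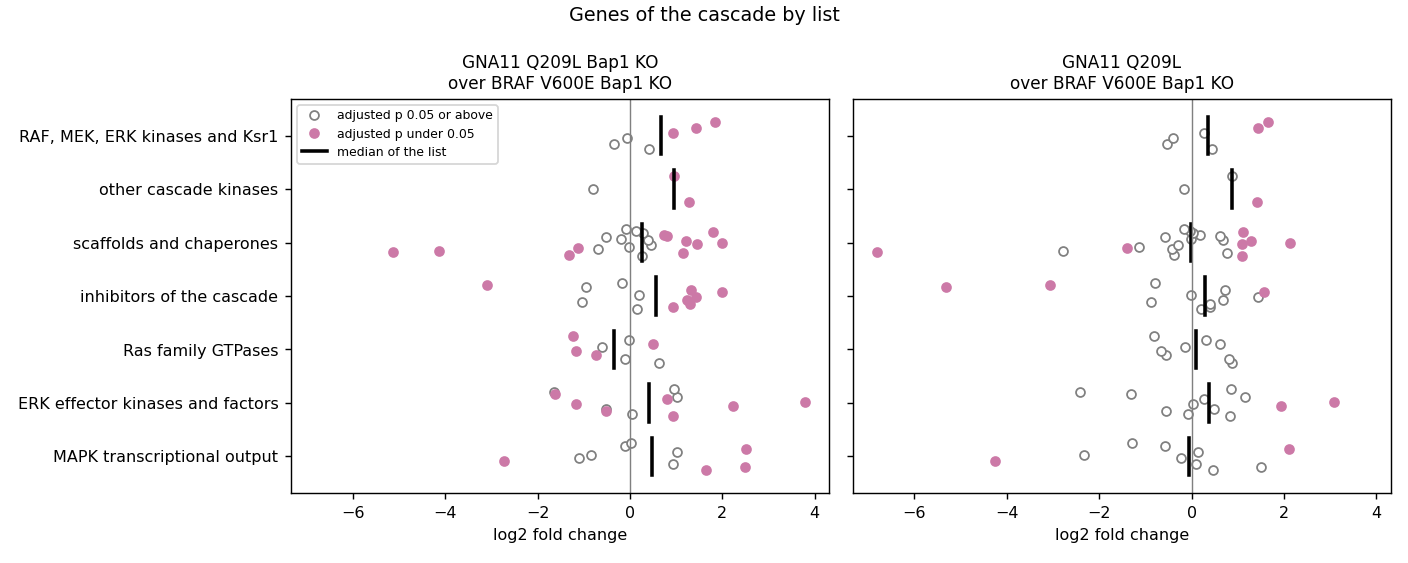
Log2 fold change (horizontal axis) of every tested gene of the members and of 6 other lists of the cascade, in the 2 comparisons with BRAF V600E Bap1 KO. Filled points have an edgeR adjusted p under 0.05 and black bars are list medians. In GNA11 Q209L Bap1 KO over BRAF V600E Bap1 KO the median of the members is 0.68 and that of the Ras family GTPases is -0.35.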

How the data were processed

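The values are estimated counts per gene that the authors deposited without normalization, all whole numbers, so rounding changed nothing. Alignment with STAR and the build mm9 are named in the submitters' processing notes, but the sources used here give no version, counting program, annotation or use of strand. Reads shared by close relatives may therefore have been split between them, and overlapping or antisense genes cannot be told apart. Library quality values in the same columns, 6 transgene sequences and 7 repeated lines were left out of library sizes and tests. For 21 genes a symbol that had become a date was restored from its ID.

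edgeR 4.0.16 (R 4.3.3) fitted all 11 libraries together with genotype as the only term, TMM scaling and its default expression filter, which kept 17350 of 18756 genes. Its quasi-likelihood test is two-sided, with Benjamini-Hochberg adjustment over all genes tested, and the threshold was 0.05. The SE is the fold change divided by the root of F, and an approximate 95% interval is the estimate with 1.96 SE either side. limma 3.58.1 (voom) and DESeq2 1.42.0 are alternatives. The procedure was tested on simulated counts, for GNA11 Q209L Bap1 KO over BRAF V600E Bap1 KO only. The simulated spread between libraries was smaller than that of these data. That test therefore does not say how well changes are found at the spread seen here or with 2 GNA11 Q209L libraries. CPM values are TMM-scaled. Ratios were compared by exact two-sided permutation tests (Python 3.11.15), whose p cannot go below 0.0952 for 5 against 2 libraries. Transcript length and GC content come from GENCODE on GRCm38 for the principal transcript of each gene, and 96.3% of the tested genes had a value. The GC correction subtracts a smooth curve (lowess, span 0.3) of each library.

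The members, the pathway lists and the naming rule were chosen with earlier results of these data known. Some genes of the cascade are not reported here. From each list up to 4 genes with the smallest p past the threshold are named in each comparison, and where none passed up to 2. The labels number no replicates. Replicates are named in accession order.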

Additional observations from a re-analysis of the deposited data

Results flagged for a closer look

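A library stood apart from the others of its genotype in 11 of 81 groups of 4 or 5 libraries examined, by the gap to its nearest neighbour relative to the range of the group. Chance flags about 1 in 20 groups where values are independent and normally distributed. These groups share libraries, and the rate that chance gives here was not estimated.

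Among the members, Map2k2 had 147.6 CPM in replicate 1 of BRAF V600E Bap1 KO, above 79.5 to 88.8 CPM in the others. The count ratio of Map2k1 to Map2k2 was 1.846 in replicate 4 of GNA11 Q209L Bap1 KO, against 0.665 to 0.919 in the others. The same BRAF V600E Bap1 KO replicate 1 was the highest of its genotype for Rap1gap at 242.9 CPM, for Spry4, an inhibitor of the cascade, at 184.5 CPM and for Epha2 at 267.5 CPM. BRAF V600E Bap1 KO replicate 4, the library with salivary gland markers, was the lowest of its genotype for Map2k5 at 17.71 CPM and the highest for Cnksr1 at 20.72 CPM, for Rras2 at 60.64 CPM and for Mknk2 at 183.6 CPM. Lamtor2 was highest at 115.9 CPM in GNA11 Q209L Bap1 KO replicate 2, and Rps6ka2 at 221.4 CPM in GNA11 Q209L Bap1 KO replicate 5.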

How the results depend on the processing

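No paired analysis was possible because the labels give no replicate numbers. Over 66 gene results and 1122 alternative values, 980 kept direction and side of the threshold, 111 lost their call, 4 gained it and 27 changed sign. In GNA11 Q209L Bap1 KO over GNA11 Q209L, 5 genes were called, and 64 with these genotypes fitted alone, 443 by DESeq2, 3 with DESeq2 size factors, 3 with no filter on low counts, 0 after the GC correction, 0 with Xist as a covariate, 0 when both libraries of the shared identifier were summed, and 0 to 1 with a library left out. In GNA11 Q209L Bap1 KO over BRAF V600E Bap1 KO, 7146 genes were called, and 3571 genes and 1 member without BRAF V600E Bap1 KO replicates 2 and 4, and 5448 to 7176 with a library left out. In GNA11 Q209L over BRAF V600E Bap1 KO, 2637 genes were called (1609 higher, 1028 lower), and 417 with these genotypes alone, 838 without BRAF replicates 2 and 4, 5425 by DESeq2 (2325 higher, 3100 lower), 1262 with Xist and 265 to 2867 with a library left out, 265 being without GNA11 Q209L replicate 2 and 1078 without replicate 1. Members called there were 0 in the fits of these genotypes alone, without BRAF replicates 3 and 4, without replicates 2 and 4 and with Xist, and 0 to 2 with a library left out. The cause of these shifts was not tested.

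Signs turned as follows. After the GC correction: Araf 0.0018 in GNA11 Q209L Bap1 KO over GNA11 Q209L, Braf 0.27 and the log2 Araf to Braf ratio -0.20 in GNA11 Q209L Bap1 KO over BRAF V600E Bap1 KO, and Braf 0.20, Nras 0.25 and the Araf to Braf ratio -0.15 in GNA11 Q209L over BRAF V600E Bap1 KO. With Xist: Araf 0.090 in GNA11 Q209L Bap1 KO over GNA11 Q209L. Map2k2 in GNA11 Q209L Bap1 KO over GNA11 Q209L was -0.0098 with these genotypes alone, -0.053 with the shared identifier summed and -0.0031 by limma. Without BRAF replicates 3 and 4: Ksr1 1.21 in GNA11 Q209L Bap1 KO over BRAF V600E Bap1 KO, and Ksr1 0.85 in GNA11 Q209L over BRAF V600E Bap1 KO. Without replicates 2 and 4, in GNA11 Q209L over BRAF V600E Bap1 KO: Map2k1 -0.0018. By limma Ksr1 was 0.37 and 0.061 in these comparisons. With a library left out, the ranges that cross 0 in GNA11 Q209L Bap1 KO over GNA11 Q209L were -0.24 to 0.30 for Araf, -0.37 to 0.60 for Map2k2, -0.079 to 0.63 for Mapk3, -0.53 to 0.42 for Map2k5, -1.12 to 0.24 for Map3k8, -1.80 to 0.083 for Rps6ka1 and -0.66 to 0.33 for the Araf to Braf ratio. The range was -0.37 to 0.32 for Ksr1 in GNA11 Q209L Bap1 KO over BRAF V600E Bap1 KO. The counting error of a member in a library was at most 5.67%, which covers counting alone.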

Other observations

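In GNA11 Q209L over BRAF V600E Bap1 KO, where the Bap1 label differs together with the oncogene, 10 genes of the 6 lists were higher and 5 lower. These lists hold 66 tested genes, and of all genes 9.27% were higher and 5.93% lower. Lamtor1 was at a log2 fold change of 2.14 ± 0.36 (edgeR adjusted p = 0.00694) and its partner Lamtor2 at 1.29 ± 0.33 (adjusted p = 0.0318), while Lamtor3 of the same complex, named after its values were seen, was at 0.67 and did not pass (adjusted p = 0.0671). Map2k5 of the ERK5 branch was at 1.43 ± 0.31 (edgeR adjusted p = 0.0181), Ppp2r1a at 1.57 ± 0.46 (adjusted p = 0.0443) and Phlda1 at 2.11 ± 0.48 (adjusted p = 0.0215). Downstream kinases Rps6ka2 and Mknk2 were at 3.09 ± 0.59 and 1.93 ± 0.41 (edgeR adjusted p of 0.0115 and 0.0163). Lower were Erbin at -1.39 ± 0.35, Rasa1 at -3.08 ± 0.85 and Epha2 at -4.25 ± 0.97 (edgeR adjusted p of 0.0291, 0.0372 and 0.0210). After the GC correction Lamtor2 (0.90, edgeR adjusted p = 0.0501), Ppp2r1a (1.20, adjusted p = 0.0543) and Erbin (-0.46, adjusted p = 0.117) did not pass. Without BRAF V600E Bap1 KO replicate 1, Epha2 was at -3.07 and Rasa1 at -2.30, both still past the threshold. Rasa1 was at -4.27 without GNA11 Q209L replicate 1 and at -2.45 without replicate 2, and Rps6ka2 at 2.24 without replicate 2, none of which passed. Cnksr1 was also lower, with 2 counts in each GNA11 Q209L library against 107 to 474 counts in BRAF V600E Bap1 KO (edgeR adjusted p = 0.0287). These libraries are shared with the other comparisons. Without GNA11 Q209L replicate 1 the higher and lower genes were 5 and 2, and without GNA11 Q209L replicate 2 all of these calls were lost in edgeR, with 1 library left in that genotype. Without BRAF V600E Bap1 KO replicate 2 they were 6 and 3, and without replicate 3 or 4 they were 7 and 5.

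Of the Ras family, Rras2 (-1.23 ± 0.35, edgeR adjusted p = 0.0194) and Rap1a (-1.16 ± 0.37, adjusted p = 0.0306) were lower in GNA11 Q209L Bap1 KO tumours than in BRAF V600E Bap1 KO tumours, and Rit1 was higher (0.49 ± 0.17, adjusted p = 0.0400). All 3 lost their calls after the GC correction, and each also without some single library, as Rras2 did without BRAF V600E Bap1 KO replicate 4 (-0.97, edgeR adjusted p = 0.0574). The effector Rps6ka3 was higher at 0.80 ± 0.23 (edgeR adjusted p = 0.0212), a call lost without BRAF V600E Bap1 KO replicate 2 (0.72, adjusted p = 0.0554) or 3 (0.67, adjusted p = 0.0583). These 4 genes also lost their calls with only replicates 1 and 2, and with only replicates 1 and 3, of BRAF V600E Bap1 KO.

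Of the listed genes with the smallest p in GNA11 Q209L Bap1 KO over GNA11 Q209L, none passed. Nf1 was at 0.89 ± 0.28 (edgeR adjusted p = 0.293), Mknk1 at -0.99 ± 0.29 (adjusted p = 0.258), Arrb1 at -0.83 ± 0.28 (adjusted p = 0.312) and Ywhah at 0.69 ± 0.30 (adjusted p = 0.416). The remaining ones, Map3k8, Mras, Rap1b, Rps6ka1, Spry4 and Epha2, had adjusted p from 0.406 to 0.689 in edgeR, and Map2k5 was at -0.15 ± 0.31 (adjusted p = 0.909). Of the Ras family in GNA11 Q209L over BRAF V600E Bap1 KO, where none passed, Rit1 was at 0.61 ± 0.21 and Nras at -0.55 ± 0.21 (edgeR adjusted p of 0.0714 and 0.0919).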
